A study of Mus musculus with 20 samples.

Results

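Matrix metalloproteinases are zinc-dependent proteases that cut collagens, laminins, elastin and other proteins around cells, and the tissue inhibitors of metalloproteinases (TIMPs) bind their active sites. A set of 10 genes of these families was followed in mouse flank tissue: the 6 metalloproteinase genes Mmp2, Mmp3, Mmp9, Mmp12, Mmp13 and Mmp14 and the 4 inhibitor genes Timp1, Timp2, Timp3 and Timp4. They were chosen by name, each was read from the probe sets annotated to that gene alone, and the probe set with the highest mean signal gave the value reported unless another is named. All 10 were on the array, with 23 probe sets, among 18193 genes with a probe set of their own and 13594 genes tested. All 10 passed the minimum mean signal of 300, taken over all groups together. Mmp13 and Mmp12, with control means of 102 and 127, passed it only through their signals after day 0. Their changes against control on day 5 and day 20 were also called with no minimum signal.

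The tissue came from a time course of Ad-VEGF-A164, an adenovirus from which infected cells make VEGF-A164, a secreted growth factor of blood vessels. RNA was measured on Affymetrix Mouse Genome 430 2.0 arrays: 5 control arrays of day 0 (A to E), 4 arrays of day 5 (B to E), 5 of day 20 (A to E) and 5 of day 60 (A to E). The remaining array was titled day 5 but carried the source name of the day 0 control, and it entered no comparison. The time course asks how the tissue changes while VEGF-A is made and afterwards. Strain, sex, age, vector dose and the number of animals behind an array are stated nowhere in the labels, so a p-value here speaks of the spread among arrays, and that spread may be technical. Every control is of day 0 and none is labelled as having received a vector without VEGF-A, so effects of VEGF-A, adenovirus, injection and elapsed time cannot be told apart.

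Most metalloproteinases are made as inactive proenzymes and need to be cut before they work. MMP13 is a collagenase, MMP3 a stromelysin that also activates other proenzymes, MMP12 the elastase of macrophages, and MMP2 and MMP9 the gelatinases. MMP14 sits in the cell membrane and, together with TIMP2, activates the proenzyme of MMP2 at the cell surface. TIMP1, TIMP2 and TIMP4 are secreted, whereas TIMP3 binds to the extracellular matrix and also inhibits ADAM and ADAMTS proteases. When new vessels form, these enzymes act on the basement membrane and the collagen around them. RNA levels say nothing of how much enzyme was active.

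The values are MAS5 signals, a linear measure of brightness per probe set that the authors had scaled to a common level on each array. The Vegfa probe set 1451959_a_at gave 66.5 to 467 in control, 3927 to 9410.0 on day 5, 7127 to 13514 on day 20 and 219 to 1076 on day 60, so that each day 5 and day 20 array was above each control array. The ratio of the 3′ to the 5′ control probe sets of Actb, a measure of RNA integrity, had a median of 7.14 in control (4.15 to 9.12), 4.52 on day 5 (2.95 to 7.31), 4.06 on day 20 (2.60 to 7.56) and 10.4 on day 60 (4.32 to 14). Array medians lay between 406 and 569. The number of arrays limits the precision. Markers of several tissues passed the minimum signal: all 9 skeletal muscle genes, and the 7 of 9 adipocyte and 8 of 9 keratinocyte genes that had a probe set. Passing was common, as 13594 of 18193 genes did, and the proportions of tissues were not measured.

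Changes were tested with limma on log2(signal + 100), and a gene was called changed where its Benjamini-Hochberg adjusted p over all 13594 genes was under 0.05. On day 5, 3 members rose (Timp1, Mmp13 and Mmp12) and 2 fell (Timp2 and Timp4), while among all genes 16.8% rose and 17.5% fell. On day 20, 4 members rose (Mmp13, Mmp12, Timp1 and Timp3) and 1 fell (Timp4), against 15.6% and 14.5% of all genes. On day 60 limma called 0 members, and 0.368% of all genes were higher and 0.765% lower; at an unadjusted p under 0.05, 2 members were higher (Mmp13 and Mmp9) and 0 lower. The median log2 change of the 10 members was 0.11, 0.63 and 0.29 on days 5, 20 and 60, and that of all genes tested was -0.07, -0.06 and 0.01. With 10 members these shares are coarse, and the sizes of single changes say more than the counts.

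**Figure D1:**
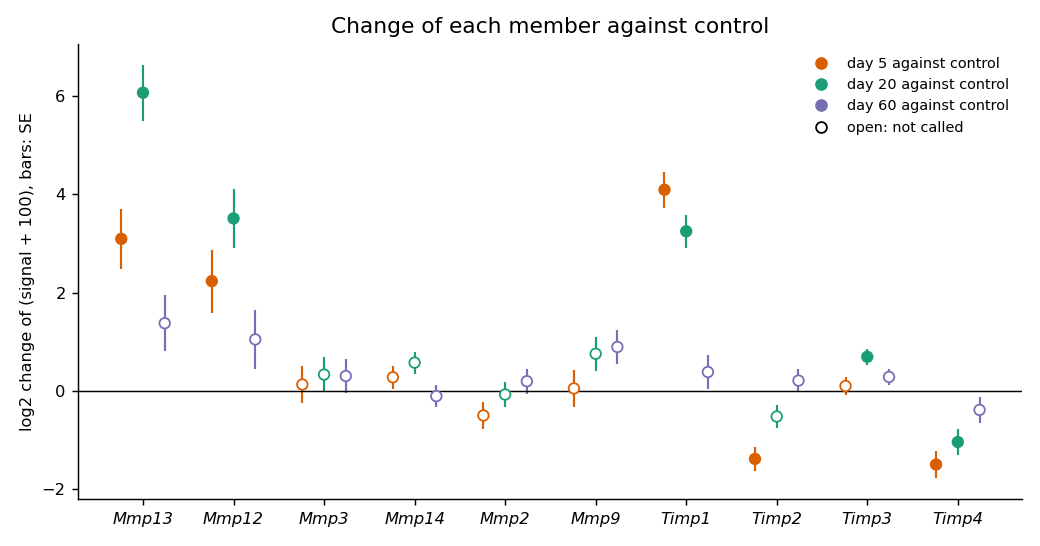
Log2 change of (signal + 100) of each member on day 5, day 20 and day 60 against control, with the standard error as bars; filled points were called at an adjusted p under 0.05. Mmp13 reached 6.07 on day 20, Timp1 was highest on day 5 at 4.09, and Timp2 and Timp4 lay below 0 on day 5.

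Mmp13 encodes interstitial collagenase-3, the main rodent collagenase. Mmp13 signals were 87.9, 196, 149, 59.5 and 19.4 in control arrays A to E, 2488, 2464, 437 and 1949.6 in day 5 arrays B to E, 8471, 13853, 35795, 13168 and 6305 in day 20 arrays A to E, and 1849, 645, 107, 365 and 123 in day 60 arrays A to E. Each day 5 array was above each control array, each day 20 array was above each day 5 array, and day 60 overlapped with control. By limma Mmp13 rose 8.54-fold on day 5 (3.09 ± 0.61 SE on the log2 scale, adjusted p = 0.000614). On day 20 it rose 67.3-fold (6.07 ± 0.57 SE, adjusted p = 2.66e-07). Day 20 was also 7.88-fold above day 5 (2.98, SE 0.61, adjusted p = 0.00648), a direction and call taken by 3.05% of all genes, and 2.25% were lower. On day 60 Mmp13 had fallen relative to day 20 (log2 change -4.70, SE 0.57, adjusted p = 8.71e-06), and its difference from control, 1.38 on the log2 scale, was not called (adjusted p = 0.237). The control signals were near the low end of the array's range, so the fold changes depend on the constant added before the log: the log2 change on day 20 was 7.33 with 1 added and 4.49 with 500 added, called with either. In bulk tissue, more cells that express a gene and more of its RNA per cell cannot be told apart, here and in every result that follows.

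Mmp12 encodes macrophage elastase. Mmp12 signals were 35.0, 35.8, 32.8, 251 and 281 in control arrays A to E, 1083, 1098, 474 and 876 in day 5 arrays B to E, 1813, 3494, 2492, 2749.7 and 1131 in day 20 arrays A to E, and 350.0, 2581, 445, 39.5 and 33.3 in day 60 arrays A to E. The day 5 and day 20 arrays were all above the control arrays and did not overlap with each other, whereas day 60 array B alone of its group stood within the day 20 range. By limma Mmp12 rose 4.70-fold on day 5 (2.23 ± 0.64 SE on the log2 scale, adjusted p = 0.0114). On day 20 it rose 11.4-fold (3.51 ± 0.61 SE, adjusted p = 0.00023). As the control signals were low, this log2 change was 4.78 with 1 added and 2.14 with 500 added, called with either. The step between day 5 and day 20 was not called in the fit of all groups (1.28, SE 0.64, adjusted p = 0.281) but was called when only day 20 and day 5 were fitted (adjusted p = 0.0312). Mmp12 on day 60 was lower than day 20 (-2.46, SE 0.61, adjusted p = 0.00616). The summed signal of 12 macrophage markers was 46707 to 108464 in control, 182569 to 257093 on day 5, 75928 to 164356 on day 20 and 34722 to 197135 on day 60, and none of them was under 300 on every array. Of the 11 macrophage markers tested, 9 rose on day 5 (Msr1 by 3.10 on the log2 scale and Fcgr3 by 2.97), and 3 rose and 1 fell on day 20, so the marker sum was highest on day 5 while Mmp12 was highest on day 20. The part of macrophage number in the Mmp12 signal was not tested.

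Mmp3 signals were 3067, 4836, 3708, 2898 and 4207 in control arrays A to E, 5187, 3893, 2921 and 4441 in day 5 arrays B to E, 3324, 7309, 10496, 4595 and 1808 in day 20 arrays A to E, and 5033, 6268, 2514, 3517 and 6936 in day 60 arrays A to E. The groups overlapped throughout, and day 20 alone spanned from the lowest to the highest signal of all 19 arrays. The log2 change of Mmp3, which encodes stromelysin-1, was 0.13 (SE 0.38) on day 5, 0.33 (SE 0.36) on day 20 and 0.30 (SE 0.36) on day 60, none of them called by limma (adjusted p = 0.825, 0.516 and 0.71).

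**Figure D2:**
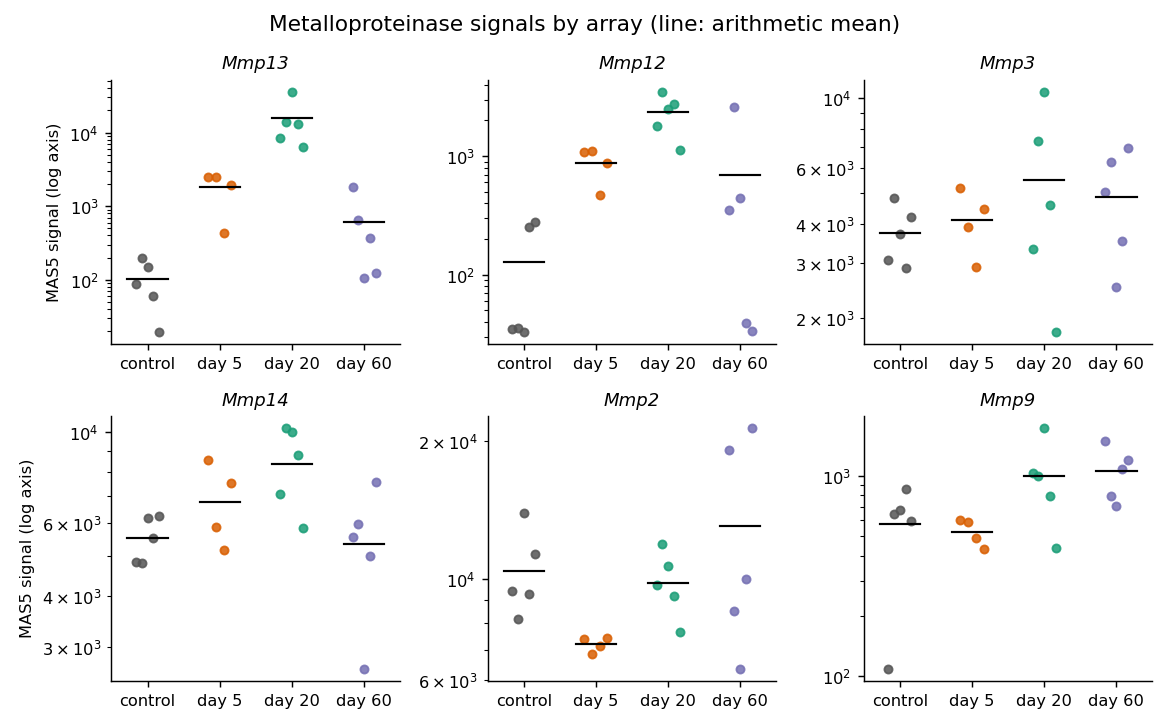
MAS5 signals of the 6 metalloproteinase genes on a log axis, 1 point per array in control, day 5, day 20 and day 60; lines are arithmetic means. Mmp13 and Mmp12 of day 5 and day 20 lie wholly above control, the other 4 genes overlap except Mmp2 on day 5, and 1 day 60 array reaches 2581 in Mmp12.

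In the mouse gene order, Mmp13, Mmp12, Mmp1b, Mmp3, Mmp1a, Mmp10, Mmp8, Mmp27, Mmp20 and Mmp7 lie next to each other on chromosome 9 (GRCm38.p6), so that Mmp3 is separated from Mmp12 by 1 gene. Their starts are shown because these neighbours, of which Mmp13 and Mmp12 were called on day 5 and day 20 and Mmp3 was not, each held TGANTCA and TATAAA. The sequences run from 110 bases before to 10 bases from the annotated start, on the plus strand, from RefSeq promoters of GRCm38.p6: chr9:7272404-7272523 for Mmp13, chr9:7347264-7347383 for the downstream of both annotated Mmp12 starts and chr9:7445712-7445831 for Mmp3. Capitals mark the matches, on both strands, to 4 short motifs. The AP-1 motif was searched as TGANTCA. The TATA box of many regulated genes was searched as TATAAA. The Sp1 box common in CpG-rich promoters was searched as GGGCGG. The motif of PEA3 and other ETS factors was searched as AGGAAG.
Mmp13: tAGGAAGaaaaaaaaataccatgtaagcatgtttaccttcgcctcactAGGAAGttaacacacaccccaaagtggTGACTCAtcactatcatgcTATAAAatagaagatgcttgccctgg
Mmp12: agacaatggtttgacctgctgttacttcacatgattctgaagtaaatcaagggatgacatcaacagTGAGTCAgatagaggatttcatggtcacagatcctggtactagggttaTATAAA
Mmp3: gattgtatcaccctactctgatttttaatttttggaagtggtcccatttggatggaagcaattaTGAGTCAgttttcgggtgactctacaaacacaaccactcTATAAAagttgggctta
Each of these 3 windows held an AP-1 match a short way before the start: TGACTCA at -35 to -29 in Mmp13, TGAGTCA at -44 to -38 in Mmp12 and TGAGTCA at -46 to -40 in Mmp3. Each also held TATAAA, beginning at -16, 5 and -7 in the same order. Over all 32851 mouse promoters of 300 bases, 7.81% held TGANTCA and 13.6% held TATAAA. The pattern TGANTCA was thus shared by all 3 windows, with TGAGTCA in Mmp12 and Mmp3 and TGACTCA in Mmp13. AGGAAG stood at -109 and -62 in the Mmp13 letters and was not found in those printed for Mmp12 and Mmp3. In the whole 300-base windows, Mmp3 did hold AGGAAG, at -183, and the upstream Mmp12 window held its complement at -87. The signal of Mmp3 had no called change. A promoter was matched for 8 of the 10 members (9 windows), and none of the other 5 members with one, Mmp14 and Timp1 to Timp4, held TGANTCA or TATAAA. The upstream Mmp12 window held neither. These are matches of letters, not measured binding.

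The membrane enzyme gene Mmp14 showed smaller differences. Mmp14 signals were 4836, 4793, 6164, 5515 and 6238 in control arrays A to E, 8524, 5864, 5168 and 7521 in day 5 arrays B to E, 7053, 10194, 9990.2, 8764 and 5854 in day 20 arrays A to E, and 5550.0, 5957, 2655, 4998 and 7549.6 in day 60 arrays A to E. Day 20 arrays B, C and D were the highest of the 19, yet day 20 array E lay within the control range. The log2 change was 0.27 (SE 0.24, limma adjusted p = 0.395) on day 5, 0.57 (SE 0.22, adjusted p = 0.0579) on day 20 and -0.11 (SE 0.22, adjusted p = 0.841) on day 60, none of them called. The day 20 value was called without day 20 array E (0.69, adjusted p = 0.0292), without day 60 array C (adjusted p = 0.0156) and without day 60 array E (adjusted p = 0.0444). It was also called with arrays centred on the 75th percentile (adjusted p = 0.0428), with array weights (adjusted p = 0.0206) and in the fit of day 20 and control alone (adjusted p = 0.0187). A second probe set, 1440920_at, averaged 2049 ± 775 on day 20 and 1003 ± 315 in control (SD, n = 5 each) and was called among all probe sets (0.93, SE 0.24, limma adjusted p = 0.0109). The third, 1416572_at, is the probe set of highest variance. Its change of 1.42 was called by limma among genes (adjusted p = 0.0362) but not among all probe sets (adjusted p = 0.0565). With a mean signal of 300.4 and a control mean of 92.8, it passed the minimum of 300 only through its signals after day 0. Day 60 lay below day 20 (-0.68, SE 0.22, adjusted p = 0.0326), a call lost in 9 of 35 alternative settings, among them without day 20 array B, C or D (-0.61, -0.61 and -0.66) and without day 60 array C or D (-0.46 and -0.68).

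Mmp2 encodes gelatinase A, the enzyme that MMP14 and TIMP2 activate together. Mmp2 signals were 9425, 8179, 13929, 9290.2 and 11320.3 in control arrays A to E, 7402, 6849, 7133 and 7413 in day 5 arrays B to E, 9678, 11913, 10649, 9196 and 7657 in day 20 arrays A to E, and 19139, 8526, 6353, 10001 and 21353 in day 60 arrays A to E. The 4 day 5 signals were close to each other and under the lowest control, whereas day 60 spanned from below to above the control range. The difference on day 5 was not called in the fit of all groups (log2 change -0.50, SE 0.27, limma adjusted p = 0.157) but was called when only day 5 and control were fitted (adjusted p = 0.0233). On day 20 and day 60 the log2 changes were -0.08 and 0.19 (adjusted p = 0.848 and 0.741). The second Mmp2 probe set, 1416136_at, averaged 3949 ± 211 on day 5 (n = 4) and 6333 ± 1057 in control (n = 5), also not called (-0.65, adjusted p = 0.292).

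Mmp9 encodes gelatinase B, which neutrophils store in granules. Mmp9 signals were 109, 648, 674, 858 and 596 in control arrays A to E, 602, 592, 488 and 429.9 in day 5 arrays B to E, 1033, 997, 1730.3, 794 and 439 in day 20 arrays A to E, and 1498, 795, 705, 1081 and 1203 in day 60 arrays A to E. Control array A stood far below the other controls, and the groups overlapped. Log2 changes were 0.05 (SE 0.37), 0.75 (SE 0.35) and 0.89 (SE 0.35) on days 5, 20 and 60, none of them called by limma (adjusted p = 0.937, 0.111 and 0.207). Without day 20 array E the day 20 value was 0.98 and was called (adjusted p = 0.0395). Without control array A the values were 0.37 on day 20 and 0.51 on day 60, not called. A second Mmp9 probe set, 1448291_at, had a low mean signal of 88.1. Its log2 changes were -0.07, 0.22 and 0.60 on days 5, 20 and 60, none called by limma (adjusted p = 0.904, 0.636 and 0.353). The summed signal of 9 neutrophil markers was 8027 to 17107 in control, 5075 to 18342 on day 5, 6653 to 23974 on day 20 and 6984 to 13670.1 on day 60, with Elane and Cxcr2 under 300 on every array, and its part in the Mmp9 signal was not tested. Of 6 neutrophil markers tested, 3 rose on day 20 (S100a9 by 1.93 on the log2 scale, adjusted p = 0.00175), while Ltf fell on all 3 days (-3.24, -2.86 and -2.44).

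Among the inhibitors, Timp1 had the largest change of the 10 members on day 5. Timp1 signals were 364, 553, 674, 601 and 424 in control arrays A to E, 15306, 13121, 6425 and 8917 in day 5 arrays B to E, 3864, 11302, 8989, 5249.6 and 2934 in day 20 arrays A to E, and 833, 1435, 531, 566 and 436 in day 60 arrays A to E. Every day 5 and day 20 array was above every control array, while day 5 overlapped with day 20 and day 60 with control. By limma Timp1 rose 17.1-fold on day 5 (4.09 ± 0.36 SE on the log2 scale, adjusted p = 1.35e-07). On day 20 it rose 9.50-fold (3.25 ± 0.34 SE, adjusted p = 1.02e-06). Day 20 was below day 5 in the mean, without a call (-0.85, SE 0.36, adjusted p = 0.193). Day 60 was lower than day 20 (-2.87, SE 0.34, adjusted p = 6.87e-06) and within 0.38 on the log2 scale (SE 0.34) of control (adjusted p = 0.609). The start of Timp1 is shown for comparison with the collagenase cluster (chrX:20870056-20870175, plus strand, RefSeq GRCm38.p6, same span and marks).
Timp1: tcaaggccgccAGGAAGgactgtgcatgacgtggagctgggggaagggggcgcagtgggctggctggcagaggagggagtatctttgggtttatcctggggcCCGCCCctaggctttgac
In these letters AGGAAG began at -99 and the complement of GGGCGG at -8, and in the whole 300-base window AGGAAG also occurred at -175 and at 41. Of all promoters 35.4% held AGGAAG and 35.7% held GGGCGG.

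Timp2 encodes the inhibitor that links MMP14 to the MMP2 proenzyme. Timp2 signals on its brightest probe set, 1454677_at, were 20636, 21307, 34333, 32404 and 39202 in control arrays A to E, 11115, 9915, 10398 and 12127 in day 5 arrays B to E, 16494, 24950.3, 20203, 19791 and 18747 in day 20 arrays A to E, and 54477, 23453, 19623, 36722 and 42682 in day 60 arrays A to E. All 4 day 5 arrays lay below every other array, and day 20 overlapped with control. By limma this probe set fell on day 5 (-1.39 ± 0.25 SE on the log2 scale, adjusted p = 0.000276), and was not called on day 20 (-0.53, SE 0.24, adjusted p = 0.0997; -0.63 and called with array weights, adjusted p = 0.0122) or day 60 (0.21, SE 0.24, adjusted p = 0.7). Day 20 was above day 5 (0.86, SE 0.25, adjusted p = 0.0491), a call lost in 20 of 35 alternative settings, among them without any array of day 5 or day 20 (0.78 to 0.93), control array C or D or day 60 array D. Day 60 was above day 20 (0.73, SE 0.24, adjusted p = 0.0307), a call lost in 11 of 35, among them without day 20 array A, D or E (0.67, 0.73 and 0.71) and without day 60 array A, D or E (0.55, 0.69 and 0.64). The value was 0.52 with the Actb ratio as a covariate (adjusted p = 0.209), 0.54 without the 3 day 60 arrays of highest Actb ratio (adjusted p = 0.227) and 0.26 with the probe set of highest variance (adjusted p = 0.624).

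The Timp2 probe sets went against each other. On probe set 1460287_at the signals were 7007, 9039, 10008, 9579 and 8176 in control arrays A to E, 15489.7, 14215, 13781 and 16190.5 in day 5 arrays B to E, 7948, 12216, 11749, 9863 and 7701 in day 20 arrays A to E, and 18013, 7808, 9506, 10191 and 19106 in day 60 arrays A to E. Here the day 5 arrays were all above the controls, with a log2 change of 0.77 (SE 0.22, limma adjusted p = 0.0202 among all probe sets). Probe set 1450040_at went the same way as the brightest, with 1420 ± 355 on day 5 (n = 4) and 3347 ± 1272 in control (n = 5), and was called (-1.11, SE 0.34, adjusted p = 0.026). Probe set 1433662_s_at, at 6598 ± 945 on day 5 and 12329 ± 3508 in control, was not (-0.85, SE 0.30, adjusted p = 0.0554), and 1420924_at and 1437081_at had log2 changes of 0.01 and 0.31 on day 5 without a call. The positions of the probe sets on the transcript were not analysed here, so the fall of Timp2 on day 5 holds for 2 of its 6 probe sets and is reversed on 1. Between day 20 and day 5 limma called none of them among all probe sets. The log2 change was 0.86 on 1454677_at (adjusted p = 0.0809), 1.18 on 1450040_at (adjusted p = 0.0764) and 0.49 on 1433662_s_at. It was -0.61 on 1460287_at (adjusted p = 0.194), -0.24 on 1437081_at and -0.06 on 1420924_at.

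**Figure D3:**
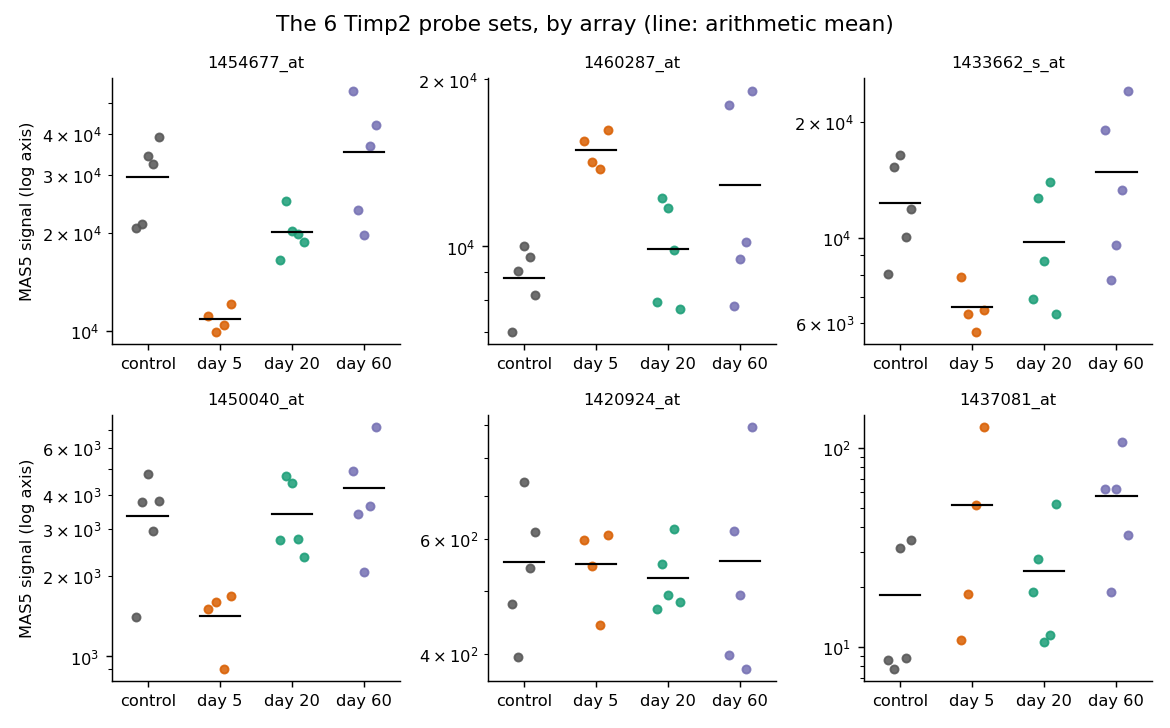
MAS5 signals of the 6 Timp2 probe sets on log axes, 1 point per array by group, lines at the arithmetic means. Probe sets 1454677_at, 1433662_s_at and 1450040_at have their lowest mean on day 5, whereas 1460287_at averages 14919 on day 5 and 8762 in control.

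Timp3 encodes the inhibitor held in the matrix. Timp3 signals were 9249, 14796, 12388, 12700.1 and 13186 in control arrays A to E, 10126, 15715, 13589 and 13923 in day 5 arrays B to E, 19735, 22664, 14279.5, 22987 and 21595 in day 20 arrays A to E, and 17087, 12155, 14492, 12753 and 19737 in day 60 arrays A to E. Day 20 arrays A, B, D and E were above every control and day 5 array, and array C was not. By limma Timp3 rose 1.62-fold on day 20 (0.69 ± 0.17 SE on the log2 scale, adjusted p = 0.00422) and was not called on day 5 (0.10, SE 0.18, adjusted p = 0.715) or day 60 (0.28, SE 0.17, adjusted p = 0.427). Its 3 other probe sets were not called on day 20, at 0.08, 0.44 and 0.89 on the log2 scale (adjusted p = 0.836, 0.231 and 0.0654).

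Timp4, whose product is found in fewer tissues than the other TIMPs, had signals of 2472, 1874, 2697, 3647 and 2871 in control arrays A to E, 917, 870.0, 969 and 743 in day 5 arrays B to E, 1749.6, 969, 836, 1825 and 1086 in day 20 arrays A to E, and 2034, 1924, 4147, 1664 and 1162 in day 60 arrays A to E. Every day 5 and day 20 array was below every control array, and day 60 overlapped with control. By limma Timp4 fell on day 5 (-1.50 ± 0.28 SE on the log2 scale, adjusted p = 0.000386). It was also lower on day 20 (-1.05 ± 0.26 SE, adjusted p = 0.00547). On day 60 it was not called (-0.39, SE 0.26, adjusted p = 0.484). Its second probe set, 1450974_at, gave -1.15 on day 5, not called (limma adjusted p = 0.0612), and -1.48 on day 20 (adjusted p = 0.0132). The summed signal of 7 adipocyte markers was 139258 to 312865 in control, 96178 to 110954 on day 5, 91504 to 124004 on day 20 and 51586 to 232363 on day 60, none of them under 300 on every array, and that of 9 skeletal muscle markers 585433 to 985955 in control, 194468 to 615508 on day 5, 340055 to 765261 on day 20 and 199207 to 1198856 on day 60. Of these adipocyte markers 5 fell on day 5 and 5 on day 20 (Adipoq at -2.98 and -4.64 on the log2 scale), and of the muscle markers 5 fell on day 5. The part of these tissues in the lower Timp4 was not tested.

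**Figure D4:**
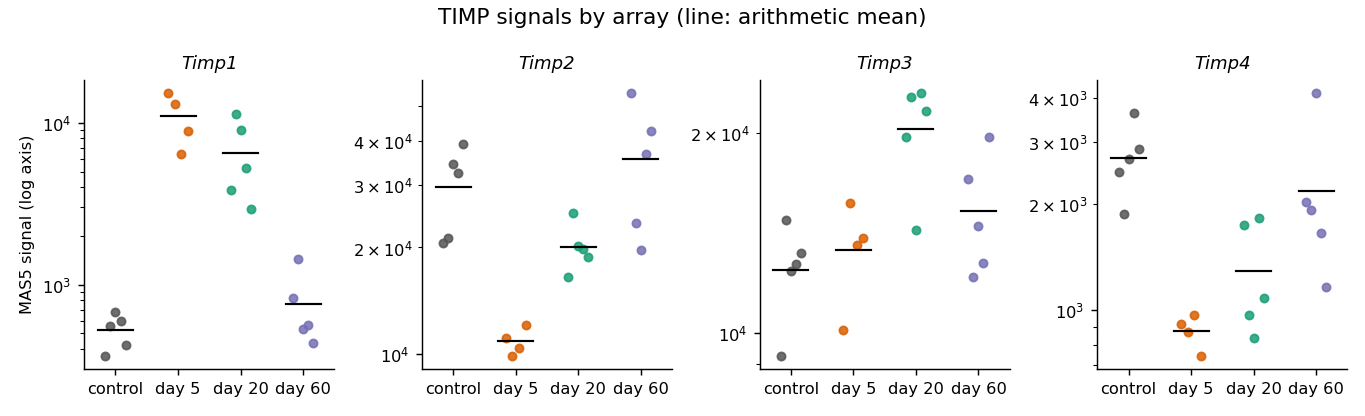
MAS5 signals of the 4 TIMP genes on log axes, 1 point per array in control, day 5, day 20 and day 60, lines at the arithmetic means. Timp1 of day 5 and day 20 lies wholly above control, Timp4 wholly below it, and the Timp2 signals of day 5 lie between 9915 and 12127, below all other arrays.

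Counted over all 23 probe sets of the 10 genes, 4 were higher and 3 lower on day 5, where 8.54% of all probe sets were higher and 8.70% lower. On day 20, 5 were higher and 2 lower, against 7.52% and 6.95% of all probe sets. Counted by gene between day 60 and day 20, 1 member rose (Timp2) and 4 fell (Mmp13, Timp1, Mmp12 and Mmp14), with 11.0% of all genes higher and 11.2% lower. Among all probe sets limma called no Timp2 probe set in that comparison (0.73 on 1454677_at, adjusted p = 0.0525). For Mmp14 the brightest, 1448383_at, was not called there (-0.68, adjusted p = 0.0526), and 1440920_at was (-1.01, adjusted p = 0.00814). Between day 20 and day 5, 2 members were higher (Mmp13 and Timp2) and 0 were called lower by limma (1 at an unadjusted p under 0.05, Timp1), against 3.05% and 2.25% of all genes. The median of the members was 0.53 for day 20 against day 5 and -0.22 for day 60 against day 20, beside 0.01 and 0.03 for all genes tested.

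Unequal change of an enzyme and an inhibitor was tested within arrays, as the difference of their log2(signal + 100), for 4 pairs known to bind each other on 3 days (12 exact two-sided permutation tests over arrays, smallest possible p = 0.00794). Mmp14 less Timp2 was higher by 1.66 on day 5 and by 1.10 on day 20 than in control (exact p = 0.00794 each, 0.0159 adjusted over the 12 tests), with no overlap of arrays. Mmp2 less Timp2 was higher by 0.89 on day 5 (exact p = 0.00794, adjusted 0.0159) and by 0.45 on day 20 with overlap (exact p = 0.0159, adjusted 0.0272). The day 20 value missed the threshold without control array D or E or day 20 array A, B, C or D (0.37 to 0.47, adjusted p = 0.0595 to 0.0714). Both pairs rest on the brightest Timp2 probe set. With Timp2 read from probe set 1460287_at, an alternative chosen after seeing the data, both pairs were lower than control on day 5. Mmp2 less Timp2 was lower by 1.27 and Mmp14 less Timp2 by 0.50, each passing the threshold in this opposite direction (exact test, adjusted p = 0.0238 and 0.0476). Their day 20 values were then -0.24 (adjusted p = 0.173) and 0.41. The direction of both pairs on day 5 thus depends on the Timp2 probe set. Mmp9 less Timp1 was lower by 4.05 on day 5 and by 2.49 on day 20, without overlap (exact p = 0.00794, adjusted 0.0159, each). As in every pair, this is the change of the enzyme less that of the inhibitor on the same signals. Mmp9 changed by 0.05 and 0.75 and Timp1 by 4.09 and 3.25, so the pair adds no separate result on Timp1. Mmp13 less Timp1 was lower on day 5 (-1.0, exact p = 0.0317, adjusted 0.0476; adjusted p = 0.0536 without any of the 4 day 5 arrays) and higher on day 20 (2.82, exact p = 0.00794, adjusted 0.0159), both without overlap. The day 5 value was -0.10 when 1 in place of 100 was added before the log. On day 60 no pair passed the adjusted threshold by the exact test: -0.01 for Mmp2 less Timp2, -0.32 for Mmp14 less Timp2, 0.51 for Mmp9 less Timp1 and 1.0 for Mmp13 less Timp1 (exact p = 0.952, 0.206, 0.317 and 0.0556).

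**Figure D5:**
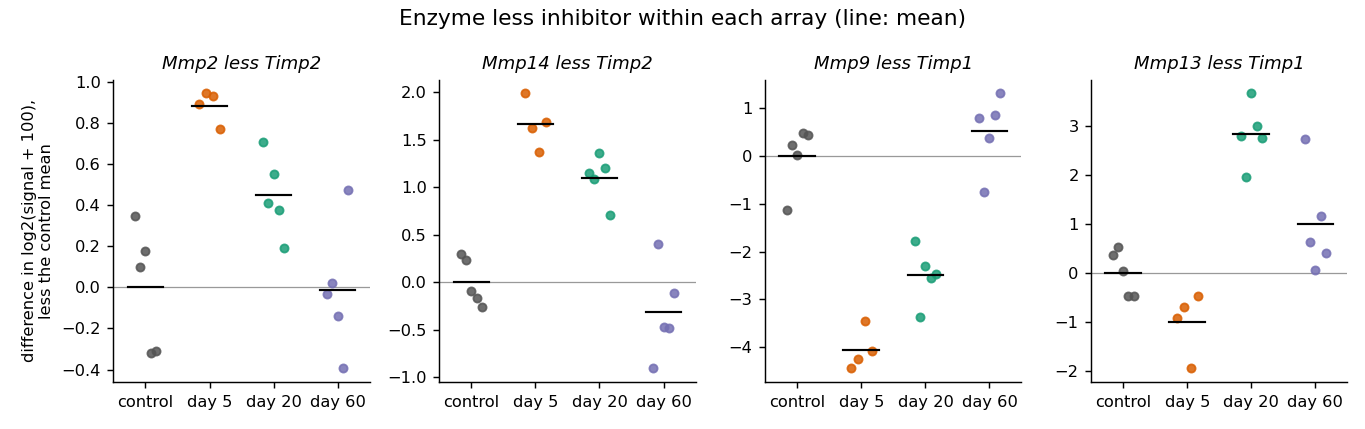
Difference in log2(signal + 100) of an enzyme and an inhibitor within each array, less the control mean, for 4 pairs, 1 point per array with lines at the means. Mmp13 less Timp1 averages -1.0 on day 5 and 2.82 on day 20, and Mmp9 less Timp1 averages -4.05 and -2.49.

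Arrays of a group differed together in several members, but the share of all genes lowest or highest on an array was not counted. Day 20 array E was the lowest of its group in all 6 metalloproteinases and in Timp1, although its Vegfa signal on probe set 1451959_a_at was the highest of the group, at 13514 (1068 on probe set 1420909_at, below arrays C and D). Day 5 array D was the lowest of its group in Mmp3, Mmp12, Mmp13, Mmp14 and Timp1 and had the lowest Vegfa signal of the group on 1451959_a_at, at 3927, but the highest on 1420909_at, at 797. Day 60 array C was the lowest of its group in 5 metalloproteinases and Timp2, and day 60 array B was the highest in Mmp12 and Timp1 and had the highest Vegfa signal of the group on 1451959_a_at, at 1076, but the lowest on 1420909_at, at 1012. The Actb ratio of day 20 array E was the highest of its group, at 7.56, where arrays A to D lay between 2.60 and 4.30. That of day 60 array C was the lowest of its group, at 4.32, and that of day 5 array D, at 5.43, lay within its group's range. The part of RNA quality in these orders was not tested. Over the 19 arrays, deviations from the group means went together for Mmp2 and Timp2 (r = 0.82), Mmp3 and Mmp14 (r = 0.80), Mmp2 and Mmp14 (r = 0.72) and Mmp13 and Timp1 (r = 0.70), and they ran opposite for Mmp14 and Timp4 (r = -0.58). These are descriptions of 19 arrays that share scaling, tissue makeup and RNA quality.

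The genes most like each member were taken by Pearson's r of log2(signal + 100) over the 19 arrays, with r of the deviations from group means second. Differences between the 4 groups raise the first of these. For Timp1 they were Tfpi2 (r = 0.98 and 0.79) and Lxn (0.98 and 0.73). For Mmp13 they were Pdgfa (0.95 and 0.65) and Lhfp (0.95 and 0.51), and for Mmp12 Gcnt2 (0.92 and 0.77) and Olfr78 (0.92 and 0.79). Mmp14 was most like Bcl2l11 (0.93 and 0.93) and Svep1 (0.93 and 0.89), Mmp2 most like Islr (0.88 and 0.85) and Add3 (0.88 and 0.83), and Mmp3 most like Cxcl12 (0.82 and 0.84) and Faap20 (0.80 and 0.81). Mmp9 had the lowest picked values, with Sema3d (0.77 and 0.63) and Ogn (0.77 and 0.68). Timp2 was most like Klhl13 (0.94 and 0.83) and Sfrp4 (0.93 and 0.75), Timp3 like Pds5b (0.87 and 0.83) and Pappa2 (0.84 and 0.59), and Timp4 like Tstd2 (0.93 and 0.79) and B3galnt2 (0.90 and 0.76).

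Of 17 further matrix metalloproteinase genes 12 had a probe set and 7 were tested. On day 5 Mmp19 rose (log2 change 1.21, limma adjusted p = 0.00142) and Mmp24 fell (-0.59). On day 20 Mmp11 rose (1.07, adjusted p = 0.0106) together with Mmp19 (0.75), and Mmp24 fell (-0.47). Mmp1a, Mmp1b and Mmp20, of which the first 2 lie beside Mmp3, were under 300 on every array. The median log2 change of the 7 was -0.22 on day 5 and 0.49 on day 20.

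Of 13 activators and regulators 10 were tested, and 4 rose and 1 fell on day 5, against 3 and 1 on day 20. Beside the counts of this and every other list stand the shares of all genes. On day 5, 16.8% of all genes rose and 17.5% fell, and on day 20, 15.6% rose and 14.5% fell. Tfpi2, a protease inhibitor that acts on plasmin, rose by 2.86 and 2.32 on the log2 scale (10523 ± 3975 on day 5, n = 4, 7159 ± 2687 on day 20 and 1290 ± 221 in control, n = 5 each). Plaur, the receptor of urokinase, rose by 1.56 and 0.95, and Plau, urokinase itself, rose by 1.05 on day 5. Reck, a membrane inhibitor of metalloproteinases, fell by 0.99 on day 5. The list's median was 0.32 on day 5 and 0.03 on day 20.

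Of 15 tested ADAM and ADAMTS genes (19 listed) 10 rose and 1 fell on day 5, and 11 rose on day 20, with medians of 0.98 and 0.96. Adamts4, an aggrecanase, rose by 3.63 and 3.41 (limma adjusted p = 7.82e-08 and 6.75e-08), and Adam12, a membrane protease, by 2.79 and 2.80. Adamts15 fell on day 5 (-0.82). Of 10 tested cathepsins and granule proteases (13 listed) 6 rose on day 5, and 4 rose and 1 fell on day 20, with medians of 0.90 and 0.44. Ctss, cathepsin S of antigen-presenting cells, rose by 1.97 and 1.43, and Ctsc, cathepsin C, by 1.44 and 0.86.

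RNA of genes for collagens and basement membrane proteins, which such enzymes can cut, changed too. Of 8 fibrillar collagen genes 6 rose on day 5 and 8 on day 20, with medians of 0.98 and 1.79. All 8 were lower on day 60 than on day 20, as were 11.2% of all genes. Col1a1, the main chain of type I collagen, rose by 1.53 and 2.19 and Col11a1 by 2.39 on day 20, while Col11a1 was not called on day 5 (0.18). Of 12 basement membrane genes 8 rose on day 5 and 9 on day 20, with medians of 1.42 and 1.52, led by Nid2 (3.60 and 3.47) and Col4a2 (2.86 and 3.35).

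Cell type markers changed as well, some upwards and some downwards, and their part in the members' changes was not tested. Of 10 endothelial markers 9 rose on day 5 and 10 on day 20, with Icam2 at 3.19 and 2.36 and Emcn at 3.05 and 2.84 on the log2 scale, and the summed signal was 13524 to 19984 in control, 59929 to 74418 on day 5, 46966 to 81152 on day 20 and 15685 to 25585 on day 60. Of 9 tested pericyte and smooth muscle markers 6 rose on day 5 and 8 rose and 1 fell on day 20, with Rgs5 at 1.10 and 2.54 and Mcam at 3.03 and 2.84, and the sum was 77321 to 98957 in control, 147838 to 200136 on day 5, 277367 to 343948 on day 20 and 72588 to 190829.5 on day 60. Of 10 fibroblast markers 4 rose and 4 fell on day 5, and 5 rose and 2 fell on day 20. Among them Pi16, a marker of adventitial fibroblasts, was at -3.14 and -1.74 and Col1a1 at 1.53 and 2.19. The fibroblast sum was 183869 to 290932 in control, 239319 to 309806 on day 5, 287176 to 472478 on day 20 and 193764 to 354355 on day 60. Of 8 tested keratinocyte markers 3 fell on day 20 (Trp63 at -1.75 and Krt5 at -1.50), with sums of 81282 to 138699 in control, 51238 to 58151 on day 5, 14271 to 111267 on day 20 and 80317 to 177955 on day 60. The 5 muscle markers that fell on day 5 included Ckm (-1.93) and Actn3 (-2.06). Retn, an adipocyte hormone, was at -2.98 and -4.11. Of 4 tested bone and cartilage markers Acp5, an enzyme of osteoclasts and some macrophages, fell on day 5 (-0.84), day 20 (-1.39) and day 60 (-1.04). Col2a1, a cartilage collagen, rose on day 20 (1.69), and Ibsp was under 300 on every array. On day 60 the genes called on all 15 lists were Lipe (-1.46) and Pparg (-1.41) among the adipocyte markers, Ltf and Acp5, each lower than control.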

How the data were processed

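Of 20 Affymetrix arrays of flank tissue RNA, 19 had a group on which source name and title did not conflict. The table deposited by the authors holds an intensity for each probe set and array, the linear MAS5 signal. Per the submitters' processing notes, GCOS 1.3 was used; per the labels, signals were corrected for background and scaled by the MAS 5.0 method (factor 1500). They were used without further normalization. Detection calls were not used here. Of 45101 probe sets (64 of them controls), 34958 had 1 gene symbol, 932 several and 9211 none in the platform annotation; 34754 symbols matched the RefSeq gene table. Each gene took its probe set of highest mean over 19 arrays, and means under 300 were left out, which kept 13594 genes.

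limma 3.58.1 (R 4.3.3) was run on log2(signal + 100): group means of all 19 arrays in 1 fit, eBayes with a trend, 5 two-sided contrasts, Benjamini-Hochberg adjustment over all genes. The fit was tested on simulated data. Pairs of enzyme and inhibitor were tested by exact permutation. The labels give no scan or hybridization batch. No column of the table belonged to other samples. The 10 members, the 15 gene lists and the alternatives were chosen with earlier results of these data known. Named genes are all members, the 2 most changed called genes of each list and the 2 genes most like each member; Mmp24, Plau, Reck, Adamts15, Lipe, Pparg and any other list gene named beyond these were picked after their values were seen. Promoters are RefSeq's, GRCm38.p6.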

Additional observations from a re-analysis of the deposited data

Results flagged for a closer look

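In 40 sets of arrays of 1 gene and 1 group, 2 held an array far from the others, and chance gives about 1 in 20. These were Mmp9 in control array A, at 109 where the other controls lay between 596 and 858, and Mmp13 in day 5 array D, at 437 where the other day 5 arrays lay between 1950 and 2488. On the dim Mmp9 probe set 1448291_at, control array A was instead the highest control, at 91.8 where the others lay between 41.2 and 48.5.

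The log2 change against control differed between days, by the limma test of the difference, in the following cases. Day 20 exceeded day 5 by 2.98 for Mmp13 and by 0.86 for Timp2 on its brightest probe set, while Timp2 probe set 1460287_at gave -0.61. Day 60 differed from day 20 by -4.70 for Mmp13, -2.87 for Timp1, -2.46 for Mmp12, -0.68 for Mmp14 and 0.73 for Timp2.

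The array with a title of day 5 and a source name of the day 0 control was above every control array in 6 members. Its signals were 15363 for Timp1, 3127 for Mmp13, 1142 for Mmp12, 5533 for Mmp3, 930.5 for Mmp9 and 7932 for Mmp14. In Timp2 (8651) and Timp4 (909.7) it was below every control array. The share of all genes outside the control range on this array was not counted, so the members cannot be set against it. Its group was not inferred from these values.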

How the results depend on the processing

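Of 50 changes (10 members in 5 comparisons) 17 were called, and 11 of these were called under each of 35 alternative settings, 19 of which left out 1 array. Those that were not were Mmp12 on day 5, Timp4 on day 20, Mmp13 and Timp2 between day 20 and day 5, and Mmp14 and Timp2 between day 60 and day 20. Of these, the calls of Mmp12, Timp4 and Mmp13 were each lost only with the array of conflicting labels counted as a control. That array lay outside the control range in these 3 genes, so this setting widens the spread by construction. The size of a change in low signals depends on the constant: with 1 or 500 added, the log2 change of Mmp12 was 3.40 or 1.14 on day 5 and 4.78 or 2.14 on day 20.

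Members called between day 20 and day 5 numbered 1 in place of 2 with 1 added before the log, with no minimum signal, with quantile normalization, without the eBayes trend, with the probe set of highest variance, over all probe sets and with a replicate block, 0 with the array of conflicting labels as a control, and 1 to 3 when 1 array was left out. Members called between day 60 and day 20 numbered 3 in place of 5 in the fit of both groups alone, with the probe set of highest variance, with the Actb ratio as a covariate and without the 3 day 60 arrays of highest Actb ratio (chosen after seeing the data), and 3 to 6 when 1 array was left out.

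Of the changes without a call, Mmp2 on day 5, Mmp9, Mmp14 and Timp2 on day 20 and Mmp12 between day 20 and day 5 were called under the settings given beside them, as were Timp3 between day 20 and day 5 (0.60, adjusted p = 0.0587) with array weights (0.55), with the array of conflicting labels in day 5 (0.57) and without control array A, day 20 array C or day 60 array B or E. Between day 60 and day 20, Timp3 (-0.41) was called without day 20 array C or day 60 array E, and Timp4 (0.65) without day 20 array D or day 60 array E.

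Changes without a call turned sign as follows; the cause was not tested. Mmp9 on day 5 was -0.02 with 500 added, -0.10 with array weights, -0.026 with a replicate block, -0.082 with the array of conflicting labels as a control, -0.12 with the Actb covariate and -0.34 to 0.21 when 1 array was left out. With the probe set of highest variance Timp2 on day 20 was 0.069, Mmp14 on day 60 0.84, Timp4 between day 20 and day 5 -0.33 and Timp3 between day 60 and day 20 0.0037. Timp1 on day 60 was -0.40 with the array of conflicting labels as a control and -0.074 without the 3 arrays, and Mmp3 between day 60 and day 20 was 0.16 with the Actb covariate. When 1 array was left out the range was -0.0068 to 0.22 for Timp3 on day 5, -0.16 to 0.033 for Mmp2 on day 20, -0.021 to 0.41 for Mmp2 on day 60, -0.25 to 0.12 for Mmp14 on day 60, -0.087 to 0.53 for Mmp3 between day 20 and day 5, and -0.36 to 0.26 for Mmp3 and -0.091 to 0.35 for Mmp9 between day 60 and day 20.

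Within arrays, Timp2 from probe set 1460287_at turned Mmp2 less Timp2 to -1.27 on day 5 and -0.24 on day 20 and Mmp14 less Timp2 to -0.50 on day 5. Both day 5 values passed the adjusted threshold in that direction. Mmp13 less Timp1 on day 5 was -0.10 with 1 added and -1.18 to -0.69 when 1 array was left out, and on day 60 0.56 to 1.23. Mmp2 less Timp2 then ranged over 0.37 to 0.54 on day 20 and -0.14 to 0.082 on day 60.

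Genes called on day 5 numbered 4658, with 7829 over all probe sets and 2810 with the array of conflicting labels as a control, and on day 20 4097, with 6596 and 2351. On day 60 they numbered 154, with 296 under array weights, 2 in the fit of both groups alone, 0 with that array as a control and 22 to 593 when 1 array was left out. Between day 20 and day 5 they numbered 721, with 1753 under array weights, 1086 over all probe sets, 350 with that array as a control and 410 at the lowest when 1 array was left out; between day 60 and day 20 3011, with 4876 over all probe sets and 1651 without the 3 arrays.

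Whether arrays of the same letter are paired was not tested. The median correlation of their deviations was 0.024 over 27 pairs (-0.27 to 0.35, 11 above 0.1). Over 108 pairs of other letters it was -0.030 (-0.45 to 0.40, 32 above 0.1). The replicate block changed the call of Timp2 between day 20 and day 5 and no other member's.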

Other observations

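The array with conflicting labels had signals of 8234 for Mmp2, 8651 for Timp2, 14485 for Timp3 and 909.7 for Timp4, besides the 6 values given above. Its Vegfa signal was 11111 on probe set 1451959_a_at and 788 on probe set 1420909_at.

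The 2 Vegfa probe sets went opposite ways. Probe set 1420909_at gave 640.3, 701, 797 and 742 on day 5 arrays B to E and 902, 851, 1149, 1177 and 1068 on day 20 arrays A to E, against 2629, 1344, 1921, 1932 and 2286 in control arrays A to E. Every day 5 and day 20 array was thus below every control array on this probe set, as Timp2 was on probe set 1454677_at on day 5. The positions of these probe sets on their transcripts were not analysed here.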
